A study of Rattus norvegicus with 18 samples.

Results

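Alcohol dehydrogenases, aldehyde dehydrogenases, aldo-keto reductases, short-chain dehydrogenases/reductases and retinol dehydrogenases were followed in the colon mucosa of azoxymethane-treated rats. The members were taken by name: every probe set annotated to exactly 1 symbol that begins with Adh, Aldh, Akr, Dhrs or Rdh followed by a digit. This gave 68 probe sets for 55 genes, of 14217 genes with such a probe set on the array. After a filter that dropped the dimmest 30% of probe sets, 44 of the 55 genes were tested. The other 11 (Adh6a, Adh7, Akr1b7, Akr1c1, Akr1c3, Aldh1l2, Dhrs7c, Dhrs7l1, Rdh12, Rdh16 and Rdh7) had a mean log2 signal under 5.54 and were not tested, which does not show that they are absent.

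These enzymes interconvert alcohols, aldehydes and ketones. Alcohol dehydrogenases oxidise alcohols to aldehydes, aldehyde dehydrogenases oxidise aldehydes to acids, and aldo-keto reductases mostly run the other way, from aldehyde or ketone to alcohol. Retinol dehydrogenases and the retinaldehyde dehydrogenases of the Aldh1a group make retinoic acid from vitamin A in 2 steps. Azoxymethane is a colon carcinogen that is hydroxylated, largely by CYP2E1 in the liver, to methylazoxymethanol, an alcohol that alcohol dehydrogenases can oxidise further.

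The samples came from male Sprague Dawley rats that were fed modified AIN-93G for 10 days, then injected with azoxymethane (15 mg/kg, subcutaneous) and killed 6 hours after it. Every rat was treated, so no untreated level can be set beside these values. Each of 9 rats (numbers 1 to 8 and 10; rat 9 was not analysed here) gave 1 array from a scraping of 4 cm of proximal colon mucosa and 1 array from 4 cm of distal colon mucosa, after 0.5 cm was discarded at each end. The rats are described as allocated to 2 groups, but the labels do not say which rat was in which, so the groups were not compared.

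Deposited signals were not scaled alike: the trimmed mean signal per array ran from 210.34 to 341.24, a ratio of 1.62, and all arrays were quantile-normalized before testing. The scrapings were not pure epithelium. Over 10 smooth muscle genes the mean log2 signal was 6.60 to 12.10 in proximal and 6.37 to 9.74 in distal samples, and 3 arrays stood apart (proximal rat 3 at 12.10, distal rat 3 at 9.74, distal rat 7 at 9.69), while none of the 10 genes differed between regions. The proximal samples of rats 3 and 6 also stood apart for several members, and results that rest on either set are given without them. Over 8 fibroblast genes the mean log2 signal was 6.15 to 11.28 in proximal samples (rat 3 at 11.28). In distal samples it was 6.42 to 10.77 (rat 7 at 10.77). Over 5 lymphocyte genes it was 5.95 to 9.66 in proximal (rat 6 at 9.33) and 6.67 to 9.59 in distal samples. None of these fibroblast and lymphocyte genes was called between regions. Of 13 enterocyte markers 6 were raised proximally and 1 distally, of 7 goblet cell markers 2 and 1, and of 7 enteroendocrine markers 6 were higher in proximal colon. Both tested erythrocyte markers (Hbb 2.80-fold, Alas2 1.78-fold) were higher distally. So were 1 of 5 tested myeloid markers (Cd14, 1.49-fold) and 1 of 2 hepatocyte markers (Alb, 1.85-fold). With the deposited scaling Cd14 (limma adjusted p = 0.105) and Alb (limma adjusted p = 0.0579) were not called. Higher proximally were 1 of 4 tuft cell markers (Dclk1, 1.68-fold) and 1 of 5 mast cell markers (Fcer1a, 1.43-fold). The other tested myeloid, hepatocyte, tuft and mast cell markers were not called, and each list held a marker of the opposite direction. The part of these marker differences in the members' results was not tested. In scrapings fewer cells of a type and less RNA per cell cannot be told apart.

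Regional differences were asked first. A difference is distal minus proximal on the log2 scale of signal plus 16, tested with limma across all probe sets, and a member counted as higher in a region at a Benjamini-Hochberg adjusted p under 0.05. Of the 44 tested members, 19 (43.2%) passed, against 30.8% of all 11407 genes tested. Higher in proximal colon were 14 members (31.8%), against a background of 14.5%. Higher in distal colon were 5 members (11.4%), against 16.2%. The median difference was -0.15 over the members and 0.01 over all genes. With the rat number as a block in limma, 8 members (18.2%) were called higher distally and 20 (45.5%) proximally, against 19.5% and 17.4% of all genes in that fit. Among the 19, the direction was the same in all 9 rats for 11 members. That share was not counted over all called genes, so it is not read as a trait of the members. For 6 of the 44 (13.6%: Adh1c, Adh5, Akr1c15, Aldh1b1, Dhrs13 and Dhrs3) the ranges of the regions did not overlap, against 6.89% of all genes. Differences of 2-fold or more were seen for Akr1c15 in distal colon and for Aldh1b1 and Akr1c14 in proximal colon.

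**Figure D1:**
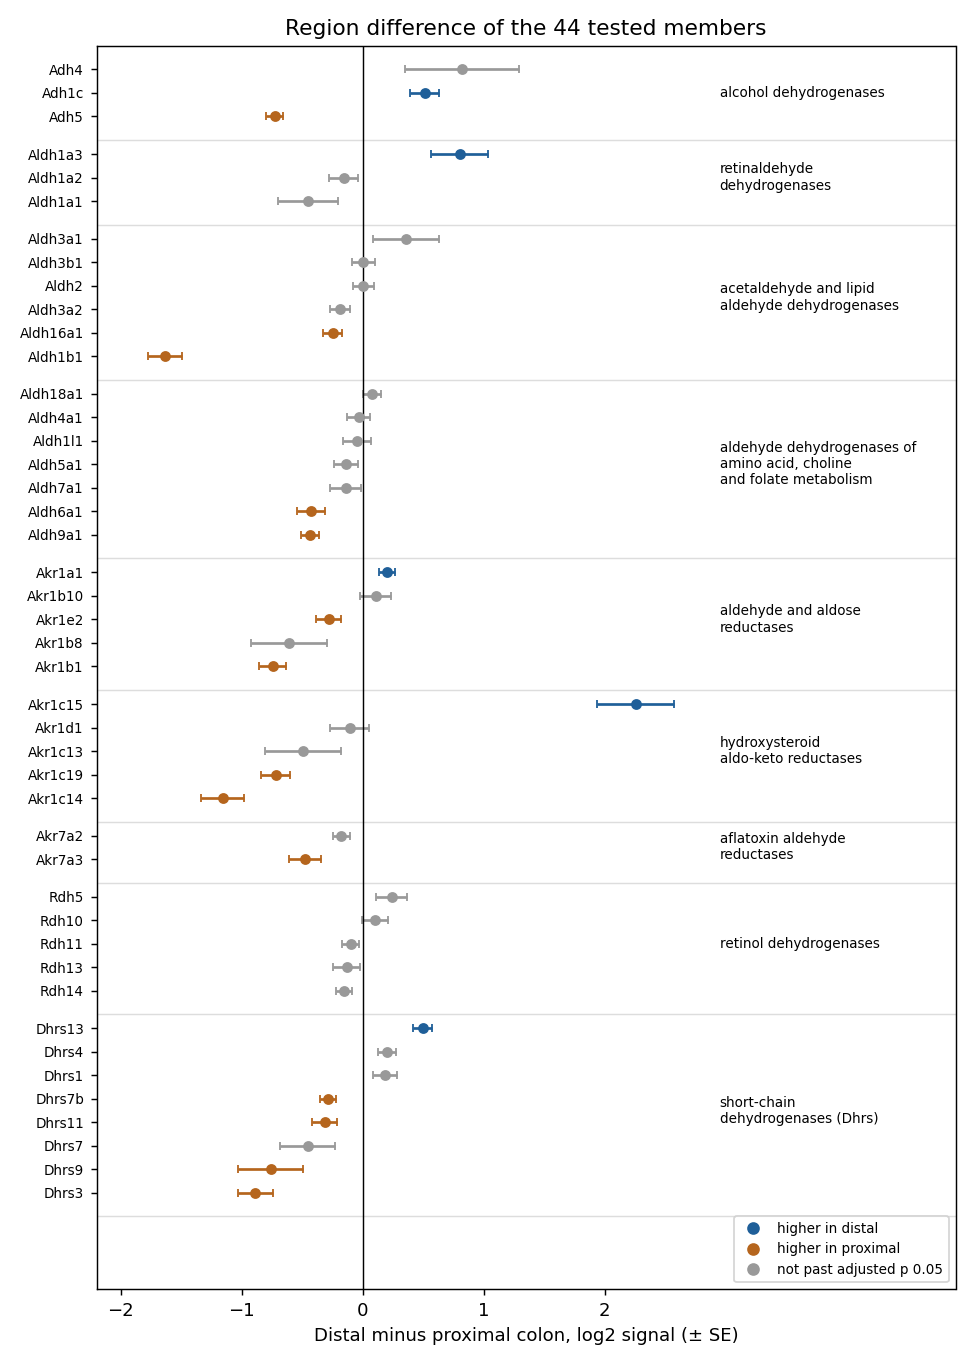
Difference between distal and proximal colon (x axis, log2 signal, mean and standard error, 9 rats per region) for each of the 44 tested members, grouped by role. Akr1c15 lies farthest to the distal side at 2.26 and Aldh1b1 farthest to the proximal side at -1.63, and 25 members in grey did not pass the test. The test and the standard errors are from the fit without the rat as a block.

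The direction of small differences depended on scaling. With the deposited scaling kept, the median of all genes moved from 0.01 to -0.10 and that of the members from -0.15 to -0.26, so the members stayed below the median of all genes. The share of called genes that were higher in distal colon was 52.8% after quantile normalization, 22.5% with the deposited scaling and 59.1% with arrays centred on their medians. Akr1c15 and Dhrs13 were called higher in distal colon under all 3 scalings, whereas Adh1c, Aldh1a3 and Akr1a1 were not called with the deposited scaling.

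**Figure D2:**
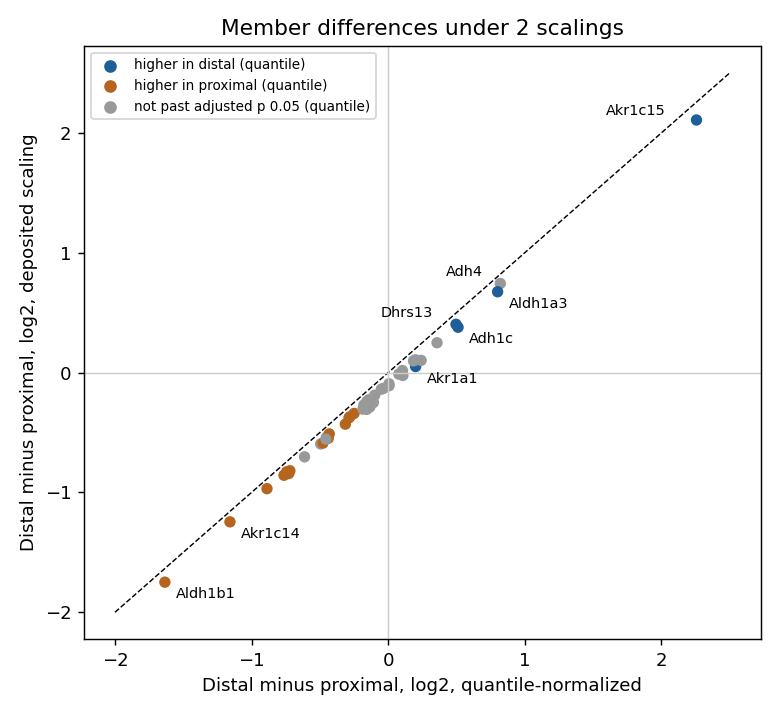
Difference between distal and proximal colon of the 44 tested members after quantile normalization (x axis, log2) and with the deposited scaling (y axis, log2); the dashed line marks equal values. Points lie below the line, and Akr1a1 moves from 0.20 to 0.05.

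Among the alcohol dehydrogenases, 3 of 5 members were tested. Adh1c, the class I enzyme that oxidises ethanol, was higher in distal colon, and Adh5, the class III enzyme that oxidises formaldehyde bound to glutathione, was higher in proximal colon. Adh1c had log2 signals of 12.24 to 13.19 in proximal colon (median 13.08) and 13.28 to 13.49 in distal colon (median 13.42). Its lowest distal sample was above its highest proximal sample, and the proximal samples of rats 3 and 6, both at 12.24, were far below the other 7. The difference was 0.51 ± 0.12 (SE), or 1.43-fold (limma adjusted p = 0.00343, higher in 9 of 9 rats). Without the proximal samples of rats 3 and 6 it was 0.32 (limma adjusted p = 2.18e-05), and with the deposited scaling 0.38 (limma adjusted p = 0.0939). A second, dimmer Adh1c probe set gave a larger difference of 1.09, or 2.13-fold (limma adjusted p = 0.00169, and 0.00165 with the deposited scaling), with higher distal signal in 9 of 9 rats.

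Adh5 ran the other way, with 11.31 to 11.63 in proximal colon (median 11.37) and 10.27 to 10.91 in distal colon (median 10.71). The regions did not overlap, and the proximal samples of rats 3 (11.33) and 6 (11.63) lay within or above the range of the other rats. The difference was -0.73 ± 0.07 (SE), 1.66-fold higher in proximal colon (limma adjusted p = 2.34e-07, 9 of 9 rats).

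Adh4, the class II enzyme that takes longer alcohols and retinol, had log2 signals of 4.53 to 7.60 in proximal colon (median 7.14) and 5.22 to 8.38 in distal colon (median 7.85). The ranges overlapped because rats 3 and 6 were low in both regions, yet distal exceeded proximal in every one of the 9 rats, by 0.61 to 1.07. The proximal samples of rats 3 and 6 lay below the filter level of 5.54, where a difference is understated. The difference of 0.82 ± 0.47 (SE) did not pass without regard to rat (limma adjusted p = 0.217) and passed with the rat as a block (limma adjusted p = 8.82e-06). Adh6a (mean 4.71 in proximal and 4.91 in distal colon) and Adh7, the stomach enzyme, were not tested. With no filter on low signals, Adh7 was the 1 added call among the 11 dim members (means 4.77 in proximal and 5.69 in distal colon, difference 0.91 ± 0.24 SE, limma adjusted p = 0.0107), with distal higher in 9 of 9 rats. No probe set was named for Adh1 or Adh6 here.

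Adh4 and Adh5 are neighbours on rat chromosome 2, in the order Adh7, Adh1c, Adh6a, Adh6, Adh4 and Adh5 (RefSeq, GRCr8), and their signals were higher in opposite regions. The 250 bases before each start are shown to set these neighbours side by side. Both are on the plus strand, Adh4 at chr2:229621842-229622091 and Adh5 at chr2:229648307-229648556, with capitals for the motif matches named after them.
Adh4: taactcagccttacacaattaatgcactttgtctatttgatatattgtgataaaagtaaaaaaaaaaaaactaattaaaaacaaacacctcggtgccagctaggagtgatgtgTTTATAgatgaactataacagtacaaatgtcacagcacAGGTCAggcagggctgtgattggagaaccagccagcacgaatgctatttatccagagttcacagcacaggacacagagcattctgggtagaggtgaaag
Adh5: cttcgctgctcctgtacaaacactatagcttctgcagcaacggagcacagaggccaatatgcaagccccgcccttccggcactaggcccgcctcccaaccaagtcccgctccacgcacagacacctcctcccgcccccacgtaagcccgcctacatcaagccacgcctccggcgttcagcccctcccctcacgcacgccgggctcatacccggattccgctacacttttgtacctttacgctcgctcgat
The Adh4 sequence is 39.2% G and C with 2 CG pairs, and the Adh5 sequence 62.4% with 21, against medians of 51.2% and 5 over 33469 rat promoters. Adh4 holds TATAAA on the minus strand 137 to 132 bases before the start and AGGTCA, a nuclear receptor half-site, on the plus strand at 99 to 94. TATAAA on either strand is found in 12.9% of all promoters of this length and AGGTCA in 14.1%. For 37 of the 44 tested members a promoter was in the table, and 5 held each motif (13.5%). These are letter matches, not shown binding sites.

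**Figure D3:**
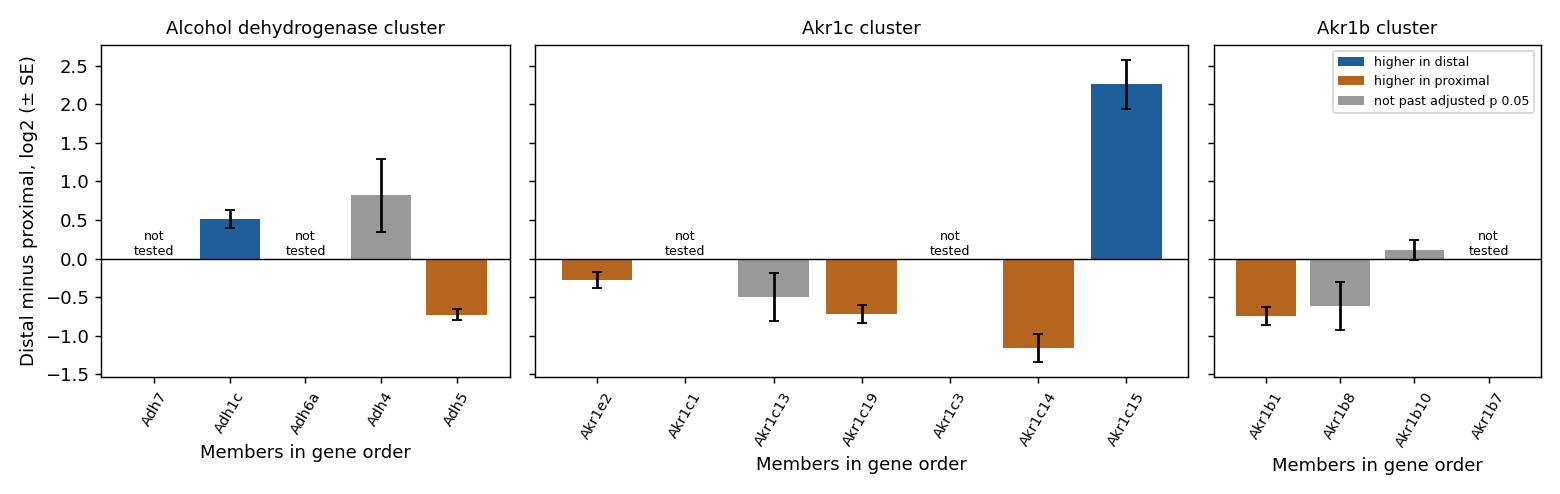
Difference between distal and proximal colon (y axis, log2, with standard error, 9 rats per region) of members in 3 gene clusters, placed in gene order with the genes that have no probe set left out. Neighbours differ in direction: Adh5 at -0.73 beside Adh4 at 0.82, and Akr1c14 at -1.16 beside Akr1c15 at 2.26. Adh4 did not pass the test shown, which leaves out the rat, and passed with the rat as a block.

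The retinaldehyde dehydrogenases Aldh1a1, Aldh1a2 and Aldh1a3 carry out the last step to retinoic acid. Of the 3, Aldh1a3 was higher in distal colon and the others were not called. Aldh1a3 had 5.66 to 7.05 in proximal colon (median 6.52) and 6.49 to 8.41 in distal colon (median 7.18). The ranges overlapped, and distal was higher in 7 of 9 rats, with rats 5 (8.41) and 2 (8.03) the highest distal samples. The difference was 0.80 ± 0.23 (SE), or 1.74-fold (limma adjusted p = 0.0153). The call was lost with the deposited scaling (limma adjusted p = 0.0922) and without rat 2 (limma adjusted p = 0.0535). With all rats and the rat as a block, Aldh1a3 passed (limma adjusted p = 0.0398). Aldh1a1 had a difference of -0.45 ± 0.25 (SE) that did not pass (limma adjusted p = 0.189), and Aldh1a2 -0.16 ± 0.12 (limma adjusted p = 0.363).

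The aldehyde dehydrogenases of acetaldehyde and lipid aldehydes comprised 6 tested members, of which 2 were called for proximal colon and none for distal colon. Aldh1b1, a mitochondrial enzyme that oxidises acetaldehyde and is known in intestinal progenitor cells, had 7.10 to 7.74 in proximal colon (median 7.38) and 5.13 to 6.41 in distal colon (median 5.89). Every proximal sample was above every distal sample, with rat 6 the lowest and rat 1 the highest of the distal samples. The difference was -1.63 ± 0.14 (SE), 3.10-fold higher in proximal colon (limma adjusted p = 3.75e-08), and within rats it ran from -2.49 to -1.17. Without the arrays of high smooth muscle signal it was -1.62 (limma adjusted p = 8.82e-07). Distal signals of Aldh1b1 lay near the filter level of 5.54, where a fold change is understated.

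Aldh2, the main mitochondrial acetaldehyde dehydrogenase, had 10.64 to 11.39 in proximal colon (median 10.91) and 10.61 to 11.17 in distal colon (median 10.91). The ranges lay over each other and 4 of 9 rats were higher in distal colon. The difference was 0.01 ± 0.09 (SE, limma adjusted p = 0.973), and with the deposited scaling -0.09, close to that scaling's median of -0.10 over all genes. Aldh3a2, which oxidises fatty aldehydes, was lower in distal colon in 8 of 9 rats by -0.18 ± 0.08 (SE, limma adjusted p = 0.109). It passed with the rat as a block (limma adjusted p = 0.00838), without rat 6 (limma adjusted p = 0.0474) and without the proximal samples of rats 3 and 6 (limma adjusted p = 0.0025).

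Aldh3a1 had a difference of 0.36 ± 0.27 (SE, limma adjusted p = 0.363) and Aldh3b1 of 0.01 ± 0.09. Aldh16a1 was higher in proximal colon by a small amount, with 9.45 to 10.01 (median 9.81) there and 9.22 to 9.83 (median 9.61) in distal colon. The ranges overlapped although proximal was higher in 9 of 9 rats, by 1.19-fold in the mean (difference -0.25 ± 0.08 SE, limma adjusted p = 0.0294). This call was lost with the deposited scaling (limma adjusted p = 0.108), with centred arrays (limma adjusted p = 0.234) and without any 1 of rats 2, 5, 6, 7 and 10 (limma adjusted p = 0.0517 to 0.0733). With all rats and the rat as a block, Aldh16a1 passed (limma adjusted p = 0.0021).

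Of 7 tested aldehyde dehydrogenases of amino acid, choline and folate metabolism, 2 were higher in proximal colon. Aldh9a1, an enzyme of carnitine synthesis, had 10.87 to 11.44 in proximal colon (median 11.26) and 10.52 to 10.95 in distal colon (median 10.86). Only the proximal sample of rat 3, at 10.87, reached into the distal range. The difference was -0.44 ± 0.07 (SE), 1.36-fold (limma adjusted p = 0.000158, 9 of 9 rats), and the same -0.44 with the 3 smooth muscle-rich arrays dropped. Aldh6a1, of valine breakdown, had 8.62 to 9.73 (median 9.32) and 8.58 to 9.01 (median 8.91). Proximal was higher in 8 of 9 rats, by 1.35-fold (difference -0.43 ± 0.12 SE, limma adjusted p = 0.00893), and its other probe set did not pass (difference -0.27, limma adjusted p = 0.24). The others ranged from -0.14 for Aldh5a1, of GABA breakdown, and Aldh7a1, of lysine breakdown, to 0.08 for Aldh18a1, of proline synthesis, with Aldh1l1 and Aldh4a1 between.

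**Figure D4:**
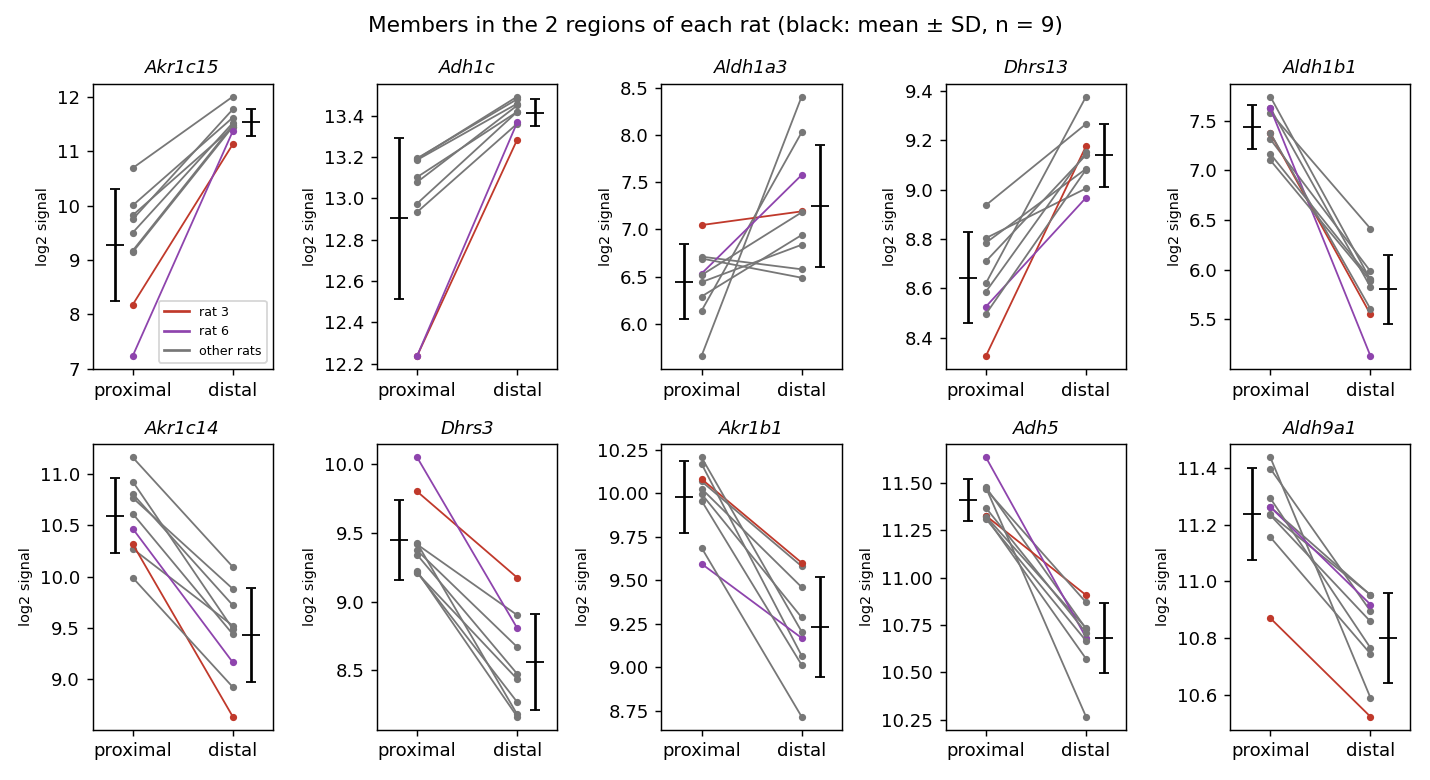
Log2 signal (y axis) in proximal and distal colon of each rat (lines join the samples of 1 rat) for 10 members higher in 1 region, with the mean and SD over 9 rats in black and rats 3 and 6 coloured. Lines run the same way in all 9 rats for every gene shown except Aldh1a3 (7 of 9), and the proximal samples of rats 3 and 6 are the lowest for Akr1c15 and Adh1c and the highest for Dhrs3.

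Hydroxysteroid aldo-keto reductases reduce steroids, prostaglandins and lipid aldehydes. Of 5 tested, Akr1c15 was higher in distal colon, and Akr1c14 and Akr1c19 in proximal colon. Akr1c15 had log2 signals of 7.23 to 10.69 in proximal colon (median 9.50) and 11.13 to 12.01 in distal colon (median 11.48). The regions did not overlap, the proximal samples were the more scattered (SD 1.03 against 0.25), and rats 6 (7.23) and 3 (8.18) were the lowest. The difference was 2.26 ± 0.32 (SE), 4.78-fold higher in distal colon (limma adjusted p = 2.58e-05, 9 of 9 rats), and within rats it ran from 1.31 to 4.14. Without the proximal samples of rats 3 and 6 it was 1.81 (limma adjusted p = 5.86e-07), and 2.11 with the 3 arrays of high smooth muscle signal dropped.

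Akr1c14, the 3-alpha-hydroxysteroid dehydrogenase of the rat, had 9.99 to 11.16 in proximal colon (median 10.61) and 8.64 to 10.09 in distal colon (median 9.49). The regions overlapped slightly across rats, with rat 8 the highest in both, and proximal was higher in 9 of 9 rats. The difference was -1.16 ± 0.18 (SE), 2.23-fold (limma adjusted p = 6.87e-05), and its other 2 probe sets gave -0.99 and -0.90. Akr1c19 had 9.68 to 10.67 (median 10.36) and 9.15 to 9.93 (median 9.64). Here the lowest proximal sample was rat 3, which carried the highest smooth muscle signal, and proximal was higher in 8 of 9 rats. The fold was 1.65 (difference -0.72 ± 0.12 SE, limma adjusted p = 0.000136), with a difference of -0.77 without the arrays of high smooth muscle signal.

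Akr1c13 had 10.35 to 12.22 in proximal colon (median 10.70) and 9.84 to 11.50 in distal colon (median 10.28). The ranges overlapped widely, and proximal was higher in 8 of 9 rats. Its difference of -0.49 ± 0.31 (SE) did not pass (limma adjusted p = 0.263) except with the rat as a block (limma adjusted p = 0.00132). Akr1d1, the steroid 5-beta-reductase of bile acid synthesis, differed by -0.11 ± 0.16 (limma adjusted p = 0.671). Genes of the Akr1c subfamily are similar in sequence, so probe sets may read more than 1 of them, which was not tested. Of the Akr1c14 probe sets, the one at -0.99 has a name that marks shared probes.

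Akr1c14 and Akr1c15 lie next to each other on rat chromosome 17 and had opposite regional differences in all 9 rats. Their 250 bases before the start are shown for that contrast, both on the minus strand, at chr17:71083185-71083434 for Akr1c14 and chr17:71117958-71118207 for Akr1c15 (RefSeq, GRCr8), with capitals for matches to TGACNNNGC, the core of the antioxidant response element, on either strand.
Akr1c14: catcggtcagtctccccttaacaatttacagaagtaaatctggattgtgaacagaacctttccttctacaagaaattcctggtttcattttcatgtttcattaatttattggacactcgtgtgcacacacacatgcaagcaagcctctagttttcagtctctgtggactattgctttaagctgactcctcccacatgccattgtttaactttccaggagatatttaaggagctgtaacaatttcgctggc
Akr1c15: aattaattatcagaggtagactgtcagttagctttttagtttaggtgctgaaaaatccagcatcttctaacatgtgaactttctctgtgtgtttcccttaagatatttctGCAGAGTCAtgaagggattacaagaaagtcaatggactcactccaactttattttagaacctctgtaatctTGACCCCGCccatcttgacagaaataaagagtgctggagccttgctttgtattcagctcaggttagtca
Akr1c15 held this core at 140 to 132 bases before the start on the minus strand and at 69 to 61 on the plus strand, and Akr1c14 held none in this window. The core is found in 10.1% of 33469 promoters and in 4 of 37 members (10.8%): Akr1c15, Aldh16a1, Aldh1a2 and Dhrs9. These 4 differed in direction, with Akr1c15 higher in distal colon, Aldh16a1 and Dhrs9 in proximal colon and Aldh1a2 not called. CAAAGTCCA, the motif of HNF4, was in 0.338% of promoters and in none of the 37.

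The aldehyde and aldose reductases gave 1 member higher in distal and 2 in proximal colon, of 5 tested. Akr1b1, aldose reductase, which turns glucose into sorbitol, had 9.60 to 10.21 in proximal colon (median 10.03) and 8.72 to 9.60 in distal colon (median 9.21). The regions met only at their edge, where proximal rat 6 and distal rat 3 lay. The difference was -0.74 ± 0.11 (SE), 1.67-fold (limma adjusted p = 5.03e-05, 9 of 9 rats), and a second, dimmer probe set gave -0.36 (limma adjusted p = 0.0258). Akr1a1, aldehyde reductase, had 11.70 to 12.23 (median 11.91) and 11.91 to 12.27 (median 12.08). The ranges overlapped and distal was higher in 8 of 9 rats, by 1.15-fold (difference 0.20 ± 0.06 SE, limma adjusted p = 0.022). That call did not hold with the deposited scaling (0.05, limma adjusted p = 0.837), with centred arrays (limma adjusted p = 0.102), or without rat 5 (limma adjusted p = 0.0683) or rat 10 (limma adjusted p = 0.0591). With all rats and the rat as a block, Akr1a1 passed (limma adjusted p = 0.0154).

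Akr1e2 was higher in proximal colon by 1.22-fold, with 8.80 to 9.59 (median 9.01) there and 8.63 to 9.15 (median 8.80) in distal colon. Its difference of -0.28 ± 0.10 (SE) was at the edge of the threshold (limma adjusted p = 0.0476, 8 of 9 rats). With the deposited scaling it did not pass (limma adjusted p = 0.116), nor with centred arrays, with no filter, with no intensity trend, without the arrays of high smooth muscle signal or without any 1 of rats 2, 4, 5, 6, 7, 8 and 10 (limma adjusted p = 0.0547 to 0.215). With all rats and the rat as a block, Akr1e2 passed (limma adjusted p = 0.0214). Akr1b8, which reduces lipid aldehydes, had a difference of -0.61 ± 0.31 (SE, limma adjusted p = 0.163), and passed with the rat as a block (limma adjusted p = 0.00475) and without rat 4 (limma adjusted p = 0.0415). Akr1b10 differed by 0.11 ± 0.13 (limma adjusted p = 0.587), or -0.02 with the deposited scaling.

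The aflatoxin aldehyde reductases Akr7a2 and Akr7a3 are neighbours on chromosome 5. Akr7a3 had 10.05 to 11.25 in proximal colon (median 11.05) and 10.24 to 10.87 in distal colon (median 10.47). Without proximal rat 3, at 10.05, the regions would not have overlapped. Proximal was 1.39-fold higher (difference -0.48 ± 0.13 SE, limma adjusted p = 0.00941, 8 of 9 rats), with a difference of -0.55 without the arrays of high smooth muscle signal and no call with centred arrays (limma adjusted p = 0.0593). Akr7a2 was lower in distal colon in 9 of 9 rats, by -0.18 ± 0.07 (SE), and passed only with the rat as a block (limma adjusted p = 0.0642 without and 0.0322 with it).

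None of the 5 tested retinol dehydrogenases passed. Rdh10, which oxidises retinol to retinaldehyde, differed by 0.10 ± 0.11 (SE, limma adjusted p = 0.513) and Rdh11 by -0.10 ± 0.07 (limma adjusted p = 0.335). The range over Rdh5, Rdh10, Rdh11, Rdh13 and Rdh14 was -0.16 to 0.24. With the rat as a block, Rdh14 passed (difference -0.16, limma adjusted p = 0.0409).

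The short-chain dehydrogenases of the Dhrs group had 8 members tested, 4 higher in proximal and 1 in distal colon. Dhrs3, a retinaldehyde reductase that returns retinaldehyde to retinol, had 9.21 to 10.05 in proximal colon (median 9.37) and 8.16 to 9.17 in distal colon (median 8.47). The regions did not overlap, and rats 6 (10.05) and 3 (9.80) were the highest proximal samples. The difference was -0.89 ± 0.14 (SE), 1.85-fold (limma adjusted p = 9.67e-05, 9 of 9 rats), and -0.75 without those 2 samples.

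Dhrs13 had 8.33 to 8.94 in proximal colon (median 8.62) and 8.97 to 9.38 in distal colon (median 9.14). Distal samples all lay above the proximal ones, by 1.41-fold in the mean (difference 0.50 ± 0.08 SE, limma adjusted p = 8.69e-05, 9 of 9 rats). Its second, dimmer probe set did not pass (0.34, limma adjusted p = 0.0854).

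Dhrs9, a retinol and 3-alpha-hydroxysteroid dehydrogenase, had 7.03 to 9.43 in proximal colon (median 8.57) and 6.65 to 8.61 in distal colon (median 7.66). Rat 3 was the lowest and rat 6 the highest in both regions, and proximal was higher in 9 of 9 rats. The difference was -0.76 ± 0.27 (SE), 1.70-fold (limma adjusted p = 0.0392), a call lost with centred arrays (limma adjusted p = 0.0548), with no filter (limma adjusted p = 0.0508) and without any 1 of rats 4, 5, 7, 8 and 10 (limma adjusted p = 0.0543 to 0.0986). With all rats and the rat as a block, Dhrs9 passed (limma adjusted p = 0.0013).

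Dhrs11 (1.24-fold, difference -0.31 ± 0.10 SE, limma adjusted p = 0.0285) and Dhrs7b (1.22-fold, difference -0.29 ± 0.06 SE, limma adjusted p = 0.00258) were each higher in proximal colon in 8 of 9 rats. Dhrs7b had 8.23 to 8.69 (median 8.38) against 8.01 to 8.26 (median 8.17), and the regions shared only a narrow range. Dhrs11 had 10.77 to 11.57 (median 11.36) against 10.60 to 11.28 (median 11.04), and its call was lost with centred arrays (limma adjusted p = 0.159) and without any 1 of rats 4, 5, 7, 8 and 10 (limma adjusted p = 0.05003 to 0.0749). With all rats and the rat as a block, Dhrs11 passed (limma adjusted p = 0.0125). Dhrs1, Dhrs4 and Dhrs7 were called with the rat as a block (limma adjusted p = 0.0438, 0.0285 and 0.0361) and not without it, except that Dhrs4 was also called, higher in distal colon, with the mean over its probe sets and without rat 1.

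Rats were then compared with each other, by a limma F test of the rat term with region in the model. Of the 44 members, 5 (11.4%) differed between rats, against 2.68% of all genes: Adh4, Akr1c13, Akr1b8, Akr1c14 and Dhrs9. All rats had the same azoxymethane dose. Which allocation group a rat belonged to was not given, so a difference between those groups cannot be told apart from one between rats.

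Adh4 had the largest F of the members, at 93.4 (limma adjusted p = 1.73e-06). In proximal colon rats 3 and 6 read 4.91 and 4.53, and the other 7 rats 6.93 to 7.60. In distal colon the same 2 rats read 5.98 and 5.22, and the others 7.73 to 8.38. No other rat came near them in either region. The samples at 4.91, 4.53 and 5.22 lay below the filter level of 5.54, where differences are understated. The F was 57.5 (limma adjusted p = 9.62e-05) without their proximal samples, 77.9 (limma adjusted p = 3.89e-05) with the arrays of high smooth muscle signal dropped, and 50.7 to 102 with each rat left out in turn.

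Akr1c13 followed a different split of the rats, with an F of 28.3 (limma adjusted p = 0.000412). Rats 3, 5, 6 and 10 read 11.30, 12.05, 12.03 and 12.22 in proximal colon and 11.35, 11.13, 11.50 and 11.43 in distal colon. The remaining 5 rats read 10.35 to 10.70 and 9.84 to 10.28. Those 4 rats were above all others in both regions. The neighbouring gene Akr1c19 did not differ between rats (F 1.03, limma adjusted p = 0.642), nor did Akr1c15 (F 3.10, limma adjusted p = 0.191).

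Akr1b8 had an F of 11.6 (limma adjusted p = 0.0115). Rat 4 was the lowest in both regions (8.34 and 8.02), rat 6 read 9.08 and 9.17, and the highest samples were rat 7 in proximal (10.76) and rat 5 in distal colon (10.37). Without rat 4 the F was 4.05 (limma adjusted p = 0.16), so the call rested on that rat.

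Akr1c14 (F 9.51, limma adjusted p = 0.0208) was highest in rat 8 in both regions, at 11.16 and 10.09. The call was lost with the deposited scaling (limma adjusted p = 0.0554), with no intensity trend (limma adjusted p = 0.0543), without the arrays of high smooth muscle signal (limma adjusted p = 0.0715) and without rat 8 (limma adjusted p = 0.0782). Dhrs9 (F 7.60, limma adjusted p = 0.0389) was lost under the first 3 of these settings, with no filter, without the proximal samples of rats 3 and 6, and without any 1 of rats 3, 4 and 6.

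**Figure D5:**
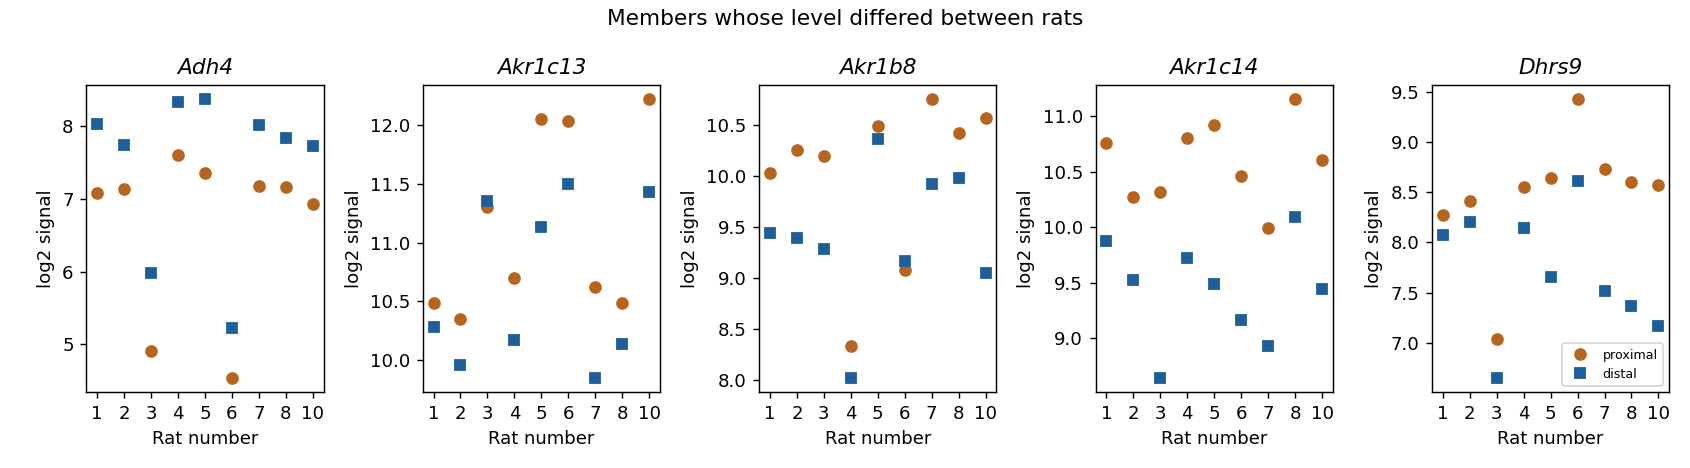
Log2 signal (y axis) of the 5 members that differed between rats, by rat number (x axis), with proximal samples as circles and distal samples as squares. Rats 3 and 6 lie lowest for Adh4 in both regions, rats 3, 5, 6 and 10 highest for Akr1c13, and rat 4 lowest for Akr1b8.

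Genes that act beside the members were counted in 3 lists. Of all genes tested, 14.5% were called higher in proximal and 16.2% in distal colon. For azoxymethane, alcohol and aldehyde enzymes outside the members, 10 of 18 tested were called for proximal and 2 for distal colon, with a median difference of -0.46. Hsd17b6, a retinol and steroid dehydrogenase, was 19.1-fold higher in proximal colon (difference -4.26 ± 0.17 SE), catalase (Cat) 1.72-fold, the sulfotransferase Sult1a1 1.82-fold and the carbonyl reductase Cbr1 1.98-fold. Esd, which finishes the formaldehyde path that Adh5 begins, was 1.33-fold higher in proximal colon (limma adjusted p = 0.00735). Khk, fructokinase, was 1.55-fold and Dcxr 1.21-fold higher in distal colon, the latter not with the deposited scaling (limma adjusted p = 0.401). Cyp2e1 had 5.55 to 6.45 over all 18 arrays, and its difference of -0.07 ± 0.14 (SE) did not pass (limma adjusted p = 0.734).

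Of 22 tested genes of the Nrf2 antioxidant response, its regulators Nfe2l2 and Keap1 included, 8 were called for proximal and 3 for distal colon. The median difference was -0.06, and the distal count was near the share over all genes. Gsta3, a glutathione transferase, was higher in proximal colon (5.81 to 8.22, against 4.07 to 5.27), and no fold is given because every distal sample lay below the filter level of 5.54. Me1, malic enzyme, was 2.99-fold higher in proximal colon, the epoxide hydrolase Ephx1 2.39-fold, and Nqo1 1.96-fold (limma adjusted p = 0.0214). Nfe2l2, which encodes Nrf2, was 1.36-fold higher in proximal colon (limma adjusted p = 8.14e-06). The 3 genes higher in distal colon, Gclc, Hmox1 and Sqstm1, were not called with the deposited scaling (limma adjusted p = 0.234, 0.324 and 0.743). Nqo1, Gclc, Me1 and Cbr1 also differed between rats, Nqo1 with rat 10 the lowest in both regions (8.87 and 8.85).

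Retinoid handling genes outside the members gave 3 higher in distal and 2 in proximal colon, of 18 tested, with a median difference of -0.07. Both counts were near the shares over all genes. Rbp2, the retinol carrier of absorptive cells, was 2.44-fold and Retsat 1.34-fold higher in proximal colon. Crabp2, a retinoic acid carrier, was 1.83-fold higher in distal colon, as were the receptors Rara (1.32-fold) and Rxrb (1.17-fold), the last 2 not with the deposited scaling (limma adjusted p = 0.188 and 0.428).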

How the data were processed

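RNA from mucosal scrapings of 9 rats was read on 18 Affymetrix rat arrays, 9 proximal and 9 distal. The deposited values are MAS5 signal intensities on a linear scale, as the submitters' processing notes name that tool. No source used here gives the version or the target of its scaling. Symbols are those of the platform annotation (20826 probe sets with 1 symbol, 436 with several, 9780 unnamed); all 68 member symbols are in the RefSeq GRCr8 gene table.

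Here, 16 was added, log2 taken and arrays quantile-normalized. Of 31042 probe sets (57 controls left out), the lowest 30% by mean were dropped, and 21729 were tested with limma 3.58.1 in R 4.3.3 (lmFit, eBayes with an intensity trend, region only, Benjamini-Hochberg over all of them). A gene is its tested probe set of highest mean. Rat differences used limma's F test of 8 rat terms. On simulated data with independent noise the region test recovered 52.2% of changes of 0.5, 86.6% of 1 and 100% of 2 (log2). There, 67, 67 and 66 of 21729 probe sets were changed by these sizes. That is a smaller share than was called in the data, so the rates need not hold for the data. The rat test recovered 94.5% of probe sets that were all given the same rat effects, drawn once at an SD of 1. Array number limits the precision.

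Same-numbered samples are from the same animal, per the labels; their deviations from the region means correlated at 0.00 to 0.57 (median 0.23, over 0.1 in 6 of 9 pairs), against a median of -0.03 between different rats. At most 0.00643% of values were identical in any of 153 pairs of arrays.

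Members and lists were chosen with earlier results of these data known. Named with values are up to 12 members with the largest called difference in each direction, the 6 of highest signal, a fixed set of alcohol, aldehyde and retinoid enzymes, and the 4 with the largest difference between rats; Akr1e2 and Aldh16a1, which complete a count, and the block-only genes were chosen after their values were seen. Alternatives were the scaling, pseudocount, filter, trend, probe set rule, rat block, left-out rats and left-out arrays; leaving out the arrays of high smooth muscle signal was chosen after seeing the data.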

Additional observations from a re-analysis of the deposited data

Results flagged for a closer look

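In 62 groups of 9 samples (1 named member in 1 region), 10 had a lowest or highest sample set apart from the rest by more than 0.493 of the group's range. Chance alone does this in about 1 in 20 groups, but the named members were partly picked for large differences between regions or rats. The groups share arrays, so these are not independent. Rat 3 was the sample in 7 of them, and its proximal array had the highest smooth muscle signal. In proximal colon rat 3 was lowest for Akr1c19 (9.68, next 10.22), Akr7a3 (10.05, next 10.92), Aldh9a1 (10.87, next 11.16), Dhrs9 (7.03, next 8.27) and Rdh10 (7.99, next 8.40), and highest for Aldh2 (11.39, next 10.99). Rat 3 was also lowest for Rdh10 in distal colon (8.01, next 8.46). The part of smooth muscle RNA in these values was not tested; without the 3 arrays of high smooth muscle signal, Akr1c19, Akr7a3, Aldh9a1 and Dhrs9 were still called higher in proximal colon.

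The other 3 were Akr7a2 in proximal rat 6 (10.12, next 9.82), Aldh3a1 in proximal rat 10 (6.89, next 5.75) and Aldh1a2 in distal rat 1 (5.80, next 6.31). None of these 3 members was called between regions.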

How the results depend on the processing

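Members higher in distal colon numbered 5, and 2 with the deposited scaling, 8 with the rat block (all genes 1853, 450 and 2219), 6 with no filter, where Adh7 was added, and 4 to 6 with 1 rat left out. Those higher in proximal colon numbered 14, and 9 with centred arrays (all genes 1657 and 1227), 20 with the block (1980) and 10 to 14 with 1 rat left out. Members differing between rats numbered 5 (all genes 306), and 13 with centred arrays, where 985 of all genes passed. They numbered 3 with the deposited scaling and 3 with no intensity trend. Without the arrays of high smooth muscle signal, where only 7 rats kept both arrays, they also numbered 3. With 1 rat left out they numbered 3 to 5, the 3 without rat 4. Where no number over all genes is given, a changed count cannot be told apart from a change over all genes. The cause of these changes was not tested.

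Among the members named by the rule, differences that changed sign were Akr1b10 (-0.024) and Aldh2 (-0.094) with the deposited scaling. Aldh2 also changed sign without rat 4, 7 or 8, and over the left-out rats it ran from -0.047 to 0.093. Outside that rule, Aldh18a1 (0.078 to -0.013) and Aldh3b1 (0.006 to -0.110) also changed sign with the deposited scaling. The rat block added 9 members to the calls and removed none. Of the comparisons with an alternative made for the members named by the rule, 626 kept direction and side of the threshold. A further 45 lost the call, 8 gained it and 5 changed sign. Members outside the rule are not in these numbers, among them Dhrs1, Dhrs4, Dhrs7 and Rdh14, which the block also added. The pseudocounts 1 and 64 changed no call of a named member, the mean over probe sets added Dhrs4, and with the lowest 50% left out 38 members were tested, without Aldh1b1.

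There was no untreated rat, and the 9 rats with 1 array per region limit the precision. Folds of dim probe sets are understated by the added 16, and signals of different probe sets were not compared.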
